A study of Homo sapiens with 6 samples.

Results

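The nuclear genes that encode the subunits of the mitochondrial respiratory chain and ATP synthase, and the assembly factors named after them, were followed in MDA-MB-231 cells, an established human triple-negative breast cancer line. Members were the rows of the gene table with a single symbol beginning with NDUFA, NDUFB, NDUFC, NDUFS, NDUFV, SDHA to SDHD, UQCR, COX and a digit, or ATP5, with pseudogene names left out. The rule found 90 rows among 66381, of which 27589 name a gene. Of the 90, 87 carry the name of a protein-coding gene and 3 are antisense RNAs named after one (COX10-AS1, NDUFB2-AS1 and NDUFV2-AS1). The rule used names and no measured value. A further 65 rows with pseudogene names were left out, and 15 rows that join an oxidative phosphorylation gene with a neighbour under several symbols are described separately.

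Polyadenylated RNA was sequenced from 3 libraries of MDA-MB-231 cells transfected with a mimic, a synthetic RNA that acts like a microRNA, and from 3 control libraries of the same line. The control libraries are titled minic_nc and the mimic libraries minic, and the labels give neither a sequence, a dose nor a time for the oligonucleotides. MiR-5001-5p, TNF-α and MNK2a to p38 MAPK signalling stand in the title of the series, and the comparison was made to find genes downstream of the mimic. All libraries come from 1 cell line, and nothing in the labels says that they were separate cultures, so p-values measure the spread between these libraries, which may be technical.

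Libraries held 31643826 to 32363456 counts. Genes known to be expressed in this line were present in every library, with VIM at 434 to 571 FPKM (fragments per kilobase of row length and depth of the library), AXL at 182 to 212, EGFR at 34.0 to 52.2 and CD44 at 12 to 17.2. Of the epithelial markers, CDH1 reached at most 0.101 and EPCAM at most 0.21 FPKM, ERBB2 lay between 3.95 and 4.71 and KRT19 between 74.1 and 81.4 FPKM. The leukocyte, endothelial and fibroblast markers PTPRC, PECAM1 and COL3A1 stayed at or below 0.251 FPKM. ESR1 and PGR were not analysed here.

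In oxidative phosphorylation, complexes I and II pass electrons from NADH and succinate to coenzyme Q, complex III passes them on to cytochrome c, and complex IV gives them to oxygen. Complexes I, III and IV pump protons across the inner mitochondrial membrane, and ATP synthase uses the gradient to make ATP. Most subunits are encoded in the nucleus and a small core in mitochondrial DNA, so that each complex is put together from products of both genomes with the help of assembly factors.

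The members made up 0.586, 0.605 and 0.625% of all counts in mimic libraries 1, 2 and 3, against 0.652, 0.684 and 0.652% in control libraries 1, 2 and 3. Every mimic library had a lower share than every control library. Of the 90 members, 83 reached 1 FPKM in at least 3 of the 6 libraries and were tested with edgeR's quasi-likelihood test (Benjamini-Hochberg adjusted p under 0.05 over all 11260 rows tested). In mimic libraries 9 were lower and 4 higher, which is 10.8% and 4.82% of those tested. Over all rows tested, 8.63% were lower and 13.6% higher. The median log2 fold change was -0.15 over the members and -0.01 over all rows tested. It was below 0 for 58 of the 83 members (69.9%) and for 52.1% of all rows. All 3 mimic libraries lay below all 3 control libraries in deposited FPKM for 32 members (38.6%, against 29.7% of all rows tested) and above them for 6 (7.23%, against 16.1%). The share of members called lower was close to that of the whole table, and the share called higher was below it. Without adjustment, 19 members had p under 0.05 in the lower and 6 in the higher direction, against 16.8% and 19.6% of all rows.

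The counts of calls depended on the libraries and on the scaling. Without mimic replicate 3, 21 members were lower (25.3%, against 7.58% of all rows in that fit), of which 6 are among the 9 above, and 3 were higher (3.61%, against 12.1%). Without mimic replicate 1, mimic replicate 2 or control replicate 1, 2 or 3, the lower members numbered 2, 1, 2, 1 and 0, where 6.15, 5.7, 5.05, 5.22 and 4.47% of all rows were lower. The higher members numbered 3, 1, 2, 1 and 1 in the same fits, where 11.2, 10.6, 10.2, 10.1 and 9.53% of all rows were higher. With libraries scaled to their totals in place of TMM, 3 members were higher and 20 lower, the median over all rows shifted to -0.09, and 10.1% of all rows were higher and 15.8% lower. In limma on log2(FPKM + 1), 2 members were higher and 20 lower, against 10.0% and 15.2% of all rows. DESeq2 called all 13 members above and added COX11 as higher and ATP5IF1, ATP5ME and SDHAF4 as lower, and called 15.7% of all rows higher and 11.3% lower. Among rows of at least 5 FPKM 4 members were higher and 10 lower, against 17.5% and 14.1% of those rows. With no expression filter 4 were higher and 1 lower, against 5.12% and 2.63% of 27589 rows. NDUFB5 was the 1 member called in all 6 fits that left out a library. A single gene tested on its own by exact two-sided permutation cannot go below p = 0.1 with 3 against 3 libraries.

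**Figure D1:**
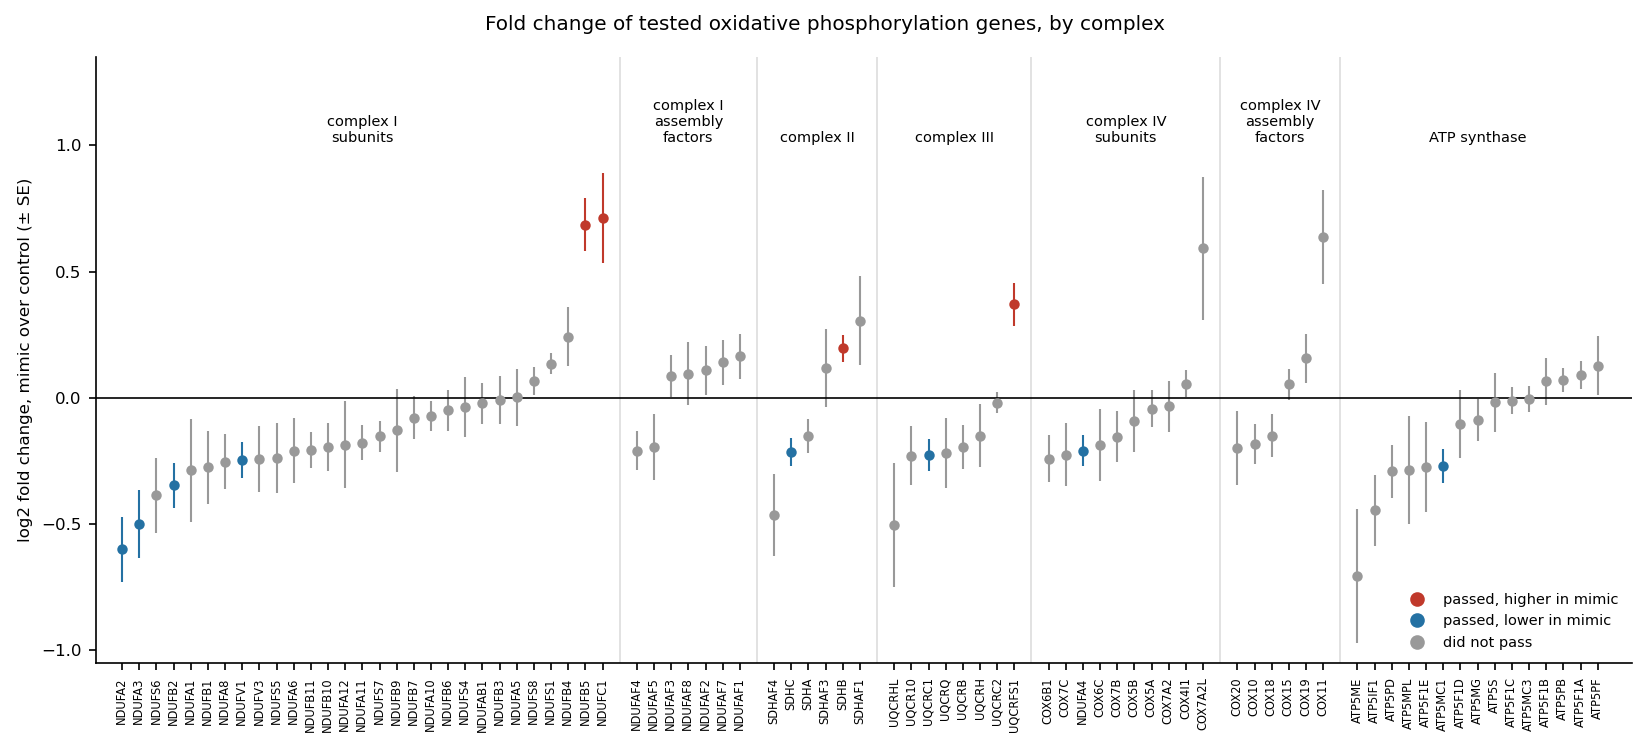
Log2 fold change (mimic over control, bars: SE) of 81 tested subunit and assembly-factor genes, grouped by complex and ordered by fold change within it. The 4 genes drawn that passed higher lie in complexes I, II and III, 4 of the 8 drawn that passed lower are complex I subunits, and most genes that did not pass lie slightly below 0.

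The series title's microRNA and the short sequences discussed with these libraries are shown for reference, because the text below reports where the members' 3′ UTRs hold them. The mature miR-5001-5p (RefSeq, GRCh38.p14, chr2:232550530-232550553, minus strand) is printed with its seed, bases 2 to 8, in capitals. Windows from the longest annotated 3′ UTRs of members that passed the test follow (GENCODE 29 transcripts, GRCh38). In each, 1 heptamer, AGTACAA or GTACAAA, is in capitals. In SDHC a match to GTACAAA at chr1:161367090-161367096 overlaps the one in capitals. Further SDHC matches begin at chr1:161367471, chr1:161367472 and chr1:161373329 and are not printed.
hsa-miR-5001-5p: aGGGCUGGacucagcggcggagcu
NDUFB5 (chr3:179624365-179624371, plus strand): atagtattttGTACAAAtgcctgtact
NDUFA4 (chr7:10932922-10932928, minus strand): gagtgcagtgGTACAAAcatggatcac
SDHC (chr1:161367089-161367095, plus strand): ttggagatttAGTACAAaaaaagaacg

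For each gene the longest annotated 3′ UTR over its protein-coding transcripts was searched, whether or not that transcript is expressed in these cells. For SDHC it is 12907 bases long. A perfect match to the miR-5001-5p seed, CCAGCCC, was found in 11 of the 82 members with an annotated 3′ UTR. That is 13.4%, against 23.2% of the other tested genes. None of these 11 passed edgeR's test over all libraries in either direction. Of the 71 members without the match, 12.7% were lower and 5.63% higher. Among the 11, DESeq2 called ATP5IF1 lower, and limma called ATP5IF1, COX10, NDUFA11 and NDUFS7 lower. Without mimic replicate 3, ATP5IF1, NDUFA11 and COX7B passed lower by edgeR. The median log2 fold change of the 11 was -0.15, and that of the 71 members without the match was also -0.15. Among the other tested genes, the 2082 with the match had a median of -0.04 and the 6894 without it of 0.01. Of those with the match 272 were lower and 243 higher (13.1% and 11.7%), and of those without it 552 were lower and 1145 higher (8.01% and 16.6%). The difference between these shares was not tested. AGTACAA or GTACAAA was found in 9 of the 82 members (10.98%), against 17.2% of the other tested genes. These heptamers came from an earlier scan of the same fold changes, so the fold changes of genes that hold them are a description. Among the other tested genes the median log2 fold change was 0.20 with and -0.04 without a match. Among the members it was -0.02 with and -0.15 without. NDUFB5 was higher and SDHC and NDUFA4 were lower, and the remaining members with a match, COX7A2L, NDUFAF5, COX18, COX19, NDUFAB1 and NDUFS1, did not pass. That is 11.1% higher and 22.2% lower of the 9 members with a match, against 4.11% and 9.59% of those without. Of the other tested genes, 37.4% were higher and 2.46% lower with a match, against 10.9% and 10.6% without. A match of letters is not a shown binding site.

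Complex I, or NADH dehydrogenase, has the most genes of the 5 complexes. Of its 30 subunits tested, 5 were lower and 2 higher in mimic libraries (16.7% and 6.67%, against 8.63% and 13.6% of all rows). The median log2 fold change was -0.18, and 24 of 30 were below 0. Among the core subunits, some of which carry the flavin or iron-sulfur clusters, NDUFV1 was lower. The accessory subunits NDUFA2, NDUFA3 and NDUFB2 were lower, and the accessory subunits NDUFB5 and NDUFC1 were higher.

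NDUFV1, which binds NADH and the flavin (chr11:67606852-67612535), had 20.7, 22.9 and 22.1 FPKM in mimic libraries 1, 2 and 3, against 26.3, 29.6 and 26.5 FPKM in control libraries 1, 2 and 3. NDUFV1 averaged 21.9 ± 1.11 FPKM in mimic and 27.4 ± 1.83 in control (SD, n = 3 each). The groups did not overlap (log2 -0.25 ± 0.07, ± SE; edgeR adjusted p = 0.0496), but the call was lost in every fit without 1 library (adjusted p up to 0.131). NDUFS1, the largest core subunit, had 13.5, 13.7 and 14.1 FPKM in mimic and 13.4, 13.02 and 13.3 FPKM in control libraries. Its groups did not overlap either, and with a log2 fold change of 0.13 ± 0.04 it did not pass (adjusted p = 0.0638). The core subunits NDUFS7 (log2 -0.15 ± 0.06, adjusted p of 0.123) and NDUFS8 (0.07 ± 0.06, adjusted p of 0.429) did not pass.

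NDUFA2, an accessory subunit of the NADH-binding arm (chr5:140638740-140647785), had the lowest fold change of the called members. It had 24.1, 20.3 and 28.5 FPKM in mimic libraries, against 37.2, 41.1 and 38.2 in control libraries. The highest mimic value, in replicate 3, lay well below the lowest control value. This is a level 1.52-fold lower (log2 -0.60 ± 0.13, edgeR adjusted p = 0.0173). The call was kept without mimic replicate 2, mimic replicate 3 or control replicate 1 and lost without each of the others (adjusted p up to 0.0579). Exons of TMCO6 and IK run antisense to NDUFA2, and since strandedness is not given in the sources used here, their reads could not be told apart.

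NDUFA3 (chr19:54102728-54109257), an accessory subunit of the membrane arm, had 2.99, 2.45 and 3.25 FPKM in mimic libraries, against 4.14, 4.64 and 4.18 in control libraries. The groups were clearly apart, with a log2 fold change of -0.50 ± 0.13 (edgeR adjusted p = 0.038), and the call was kept without mimic replicate 3 alone. The row is an assembled locus whose exons overlap the antisense gene TFPT. NDUFB2 (chr7:140690777-140722790), another membrane-arm subunit, had 3.95, 4.20 and 4.29 FPKM in mimic libraries, against 6.08, 4.94 and 5.66 in control libraries. Here the mimic libraries agreed closely and control replicate 2 was the lowest control. The log2 fold change was -0.35 ± 0.09 (edgeR adjusted p = 0.0345), and the call was kept without control replicate 2 alone. Its row is an assembled locus of 10176 bases with ADCK2 on the same strand and BRAF and NDUFB2-AS1 antisense.

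NDUFB5, a subunit of the membrane arm (chr3:179604690-179627647), had 6.68, 7.91 and 8.07 FPKM in mimic libraries, against 5.36, 4.96 and 4.55 in control libraries. Every mimic library lay above every control library, and NDUFB5 averaged 7.56 ± 0.759 FPKM in mimic and 4.96 ± 0.407 in control (SD, n = 3 each). It rose 1.61-fold (log2 0.69 ± 0.10, edgeR adjusted p = 0.00514), and without any 1 library the log2 fold change stayed between 0.63 and 0.78 with an adjusted p of at most 0.0221. NDUFC1 (chr4:139266880-139302551), a small membrane subunit, had 5.14, 5.69 and 8.02 FPKM in mimic libraries, against 3.89, 4.07 and 4.18 in control libraries. Mimic replicate 3 was well above the other mimic libraries, and all 3 were above the controls (log2 0.71 ± 0.18, edgeR adjusted p = 0.0305). The call was kept without mimic replicate 1 and without mimic replicate 3 (log2 0.50). The NDUFC1 row is an assembled locus with MGARP on the same strand.

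NDUFS5 had the highest FPKM of the complex I subunits. It had 132, 145 and 190 FPKM in mimic libraries, against 189, 205 and 188 FPKM in control libraries. Mimic replicates 1 and 2 lay below the controls and replicate 3 among them. With a log2 fold change of -0.24 ± 0.14 it did not pass (edgeR adjusted p = 0.261). Without mimic replicate 3 it was -0.41 and passed (adjusted p = 0.0199). NDUFS6, NDUFA1, NDUFA11 and NDUFB10, named after their values were seen, also passed lower only without mimic replicate 3 among the fits that left out a library. The remaining subunits of complex I, with log2 fold changes between -0.28 and 0.24, did not pass in the fit over all libraries.

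The complex I assembly factors, named NDUFAF, showed no call. Of 7 tested, 0 passed in either direction by edgeR, where 8.63% of all rows were lower and 13.6% higher. With so few genes, 0 calls do not set the group apart. Of the 7, 1 had an unadjusted p under 0.05, and the median log2 fold change was 0.10. DESeq2 called 0 and limma 1, NDUFAF4, as lower. NDUFAF4 had 11.4, 10.7 and 9.95 FPKM in mimic libraries, against 13.2, 12.8 and 13.03 in control libraries, without overlap (log2 -0.21 ± 0.08, adjusted p = 0.0937). NDUFAF5 had 1.84, 1.57 and 1.352 FPKM in mimic libraries, against 1.85, 2.02 and 1.88 in control libraries (log2 -0.20 ± 0.13, adjusted p = 0.327). These were the lowest fold changes of the assembly factors, and the other 5 tested were above 0. NDUFAF1, which acts early in building the membrane arm, had 9.42, 9.30 and 9.54 FPKM in mimic libraries, against 8.42, 8.58 and 9.61 in control libraries. NDUFAF7, a methyltransferase, had 4.33, 4.06 and 4.50 FPKM in mimic libraries, against 4.25, 3.94 and 4.16 in control libraries. NDUFAF2, with the highest FPKM of them, had 34.9, 32.2 and 40.0 FPKM in mimic libraries, against 34.2, 36.1 and 34.7 in control libraries. In all 3 the groups overlapped, and the log2 fold changes of 0.16 ± 0.09, 0.14 ± 0.09 and 0.11 ± 0.10 did not pass. NDUFAF3 (log2 0.09) and NDUFAF8 (log2 0.10) did not pass. NDUFAF6 was under the expression filter, with 165, 193 and 181 counts in mimic libraries, against 229, 161 and 226 in control libraries.

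In complex II, succinate dehydrogenase, which also works in the tricarboxylic acid cycle, SDHB was higher and SDHC lower, which is 16.7% of the 6 genes tested in each direction, against 13.6% of all rows higher and 8.63% lower. SDHB, the iron-sulfur subunit (chr1:17018722-17054170), had 21.95, 22.6 and 22.4 FPKM in mimic libraries, against 20.8, 20.6 and 20.2 in control libraries. The libraries of each group lay close together and the groups did not overlap. The difference was small, with a log2 fold change of 0.20 ± 0.06 (edgeR adjusted p = 0.0459), and the call was lost in every fit without 1 library (adjusted p up to 0.13). SDHC, a membrane anchor subunit (chr1:161314257-161375340), had 10.4, 9.37 and 9.38 FPKM in mimic libraries, against 11.4, 12.3 and 11.9 in control libraries. The groups did not overlap (log2 -0.22 ± 0.06, edgeR adjusted p = 0.0366), and the call was kept without mimic replicate 1 alone. The row of SDHC spans 14159 exonic bases, overlaps the antisense gene CFAP126 and has 4 annotated pseudogene copies elsewhere. Other called members also have such copies: ATP5MC1 has 7, NDUFA3 5, UQCRFS1 3, NDUFB5 2, and NDUFB2 and NDUFA4 1 each. Exons of NDUFV1 overlap C11orf72 antisense and AP003385.3 on the same strand, and those of UQCRFS1 overlap AC007786.1 antisense.

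SDHA, the flavoprotein subunit, had 24.3, 21.7 and 23.7 FPKM in mimic libraries, against 25.4, 27.4 and 28.9 in control libraries. All mimic values were below all control values, and the log2 fold change of -0.15 ± 0.07 did not pass (edgeR adjusted p = 0.154). SDHAF4, which helps SDHA to join SDHB, had 5.91, 7.98 and 7.98 FPKM in mimic libraries, against 10.4, 12.2 and 9.30 in control libraries. The groups did not overlap (log2 -0.46 ± 0.16, adjusted p = 0.0858). SDHAF1, which serves the maturation of SDHB, had 12.7, 8.31 and 8.96 FPKM in mimic libraries, against 8.08, 8.19 and 9.31 in control libraries. SDHAF3, with the same role, had 3.30, 3.95 and 3.33 FPKM in mimic libraries, against 2.93, 3.97 and 3.39 in control libraries. Mimic replicate 1 was high in SDHAF1, the groups overlapped in both, and neither passed (adjusted p = 0.264 and 0.622). SDHD was counted in a merged row.

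Complex III had 8 members tested, 1 lower and 1 higher (12.5% each, against 8.63% and 13.6% of all rows), with a median log2 fold change of -0.21 and 7 of 8 below 0. UQCRFS1, the Rieske iron-sulfur protein (chr19:29205321-29213541), was the member above 0. It had 23.1, 24.6 and 19.9 FPKM in mimic libraries, against 17.7, 18.7 and 18.8 in control libraries. All mimic libraries lay above the controls, replicate 3 the least (log2 0.37 ± 0.08, edgeR adjusted p = 0.0226). The call was kept without mimic replicate 3 (log2 0.45) and lost in the other fits without 1 library (adjusted p up to 0.0755). UQCRC1, a core protein of the matrix side (chr3:48599002-48610976), had 40.8, 42.0 and 45.4 FPKM in mimic libraries, against 53.3, 54.9 and 50.1 in control libraries. It was lower in all mimic libraries (log2 -0.23 ± 0.06, edgeR adjusted p = 0.0452), and the call was kept without mimic replicate 3 alone. The other core protein, UQCRC2, did not pass (log2 -0.02 ± 0.04, adjusted p = 0.781).

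The small subunits of complex III did not pass. UQCRB had 5.46, 5.502 and 6.26 FPKM in mimic libraries, against 6.61, 7.44 and 6.76 in control libraries, without overlap (log2 -0.20 ± 0.09, edgeR adjusted p = 0.15). UQCRH, the hinge protein, had the highest FPKM of the complex. It had 93.4, 80.8 and 114 FPKM in mimic libraries, against 114, 118 and 106 in control libraries (log2 -0.15 ± 0.13, edgeR adjusted p = 0.436). Mimic replicates 1 and 2 lay below the controls and replicate 3 among them, and without replicate 3 UQCRH passed lower (log2 -0.30). UQCRHL, a near copy of UQCRH whose counts may hold reads of UQCRH, had 1.61, 1.08 and 2.12 FPKM in mimic libraries, against 2.59, 2.35 and 2.26 in control libraries (log2 -0.50 ± 0.25, adjusted p = 0.192). UQCR10 and UQCRQ had log2 fold changes of -0.23 and -0.22, and UQCRQ passed lower without mimic replicate 3.

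Of 10 complex IV subunits tested, 1 was lower and 0 higher by edgeR (10.0% and 0%, against 8.63% and 13.6% of all rows), and the median log2 fold change was -0.12. No subunit was higher in DESeq2 or limma or at an unadjusted p under 0.05. NDUFA4, named for complex I but known as a subunit of complex IV (chr7:10931951-10940256), had 24.2, 25.0 and 26.8 FPKM in mimic libraries, against 30.4, 30.5 and 31.7 in control libraries. The groups did not overlap (log2 -0.21 ± 0.06, edgeR adjusted p = 0.0489), and the call was kept without mimic replicate 3 alone. COX6B1, a subunit on the intermembrane side, had 69.9, 76.4 and 86.9 FPKM in mimic libraries, against 95.0, 102 and 94.2 in control libraries. It did not overlap either (log2 -0.24 ± 0.09, adjusted p = 0.111) and passed without mimic replicate 3 (log2 -0.33, adjusted p = 0.0356). COX7C had 38.4, 47.0 and 45.8 FPKM in mimic libraries, against 48.2, 62.6 and 51.0 in control libraries (log2 -0.22 ± 0.12, adjusted p = 0.244).

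COX5A and COX4I1, which bind each other early in assembly of complex IV, were at similar levels in both groups. COX5A, the most abundant subunit of complex IV by mean control FPKM, had 92.9, 102 and 89.8 FPKM in mimic libraries, against 95.0, 104 and 110 in control libraries. COX4I1 had 14.8, 15.0 and 15.2 FPKM in mimic libraries, against 15.1, 14.9 and 15.7 in control libraries. Both overlapped, with log2 fold changes of -0.04 ± 0.07 and 0.06 ± 0.05, and neither passed. COX7A2L, which takes part in joining complexes III and IV, split the control group. It had 22.9, 23.7 and 24.4 FPKM in mimic libraries, against 25.4, 12.03 and 12.2 in control libraries, so control replicate 1 stood with the mimic libraries. The log2 fold change was 0.59 ± 0.28 (edgeR adjusted p = 0.182), and without control replicate 1 it was 1.04 and passed. The subunits COX6C, COX7B and COX5B had log2 fold changes of -0.19, -0.15 and -0.09, did not pass, and each passed lower without mimic replicate 3. COX7A2 (log2 -0.03) did not pass. Under the filter, COX6B2 had 3, 3 and 0 counts in mimic libraries, against 0, 0 and 7 in control libraries. COX7A1 had 29, 18 and 9 counts in mimic libraries, against 6, 9 and 20 in control libraries, and NDUFA4L2 2, 5 and 0 counts in mimic libraries, against 0, 0 and 0 in control libraries.

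Of the 6 complex IV assembly factors tested, 0 passed by edgeR in either direction, where 8.63% of all rows were lower and 13.6% higher. Among the 6, 1 had an unadjusted p under 0.05. DESeq2 called COX11 as higher, and limma COX10 as lower. COX11, which delivers copper to the complex, was nearest the threshold. It had 6.44, 11.1 and 9.23 FPKM in mimic libraries, against 6.22, 5.74 and 6.25 in control libraries. The mimic libraries were widely spread but all above the controls (log2 0.64 ± 0.19, edgeR adjusted p = 0.0514), and without mimic replicate 1 COX11 passed (log2 0.83). COX19, which serves copper supply to the complex, had 1.99, 2.04 and 2.28 FPKM in mimic libraries, against 1.904, 1.92 and 2.15 in control libraries. COX15, which makes heme A, had 10.8, 11.1 and 10.6 FPKM in mimic libraries, against 11.5, 11.2 and 10.3 in control libraries. Neither was apart (adjusted p = 0.295 and 0.587). COX10, which makes the precursor of heme A, had 8.93, 8.88 and 9.22 FPKM in mimic libraries, against 11.1, 11.3 and 9.97 in control libraries. COX18, which inserts MT-CO2 into the membrane, had 4.37, 3.98 and 4.51 FPKM in mimic libraries, against 5.40, 4.83 and 4.83 in control libraries. The groups did not overlap for COX10 or COX18, and with log2 fold changes of -0.18 ± 0.08 and -0.15 ± 0.09 neither passed. COX20, a chaperone of MT-CO2, had 2.36, 2.52 and 2.65 FPKM in mimic libraries, against 2.47, 3.50 and 3.15 in control libraries (adjusted p = 0.373).

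ATP synthase had 15 genes tested, 1 lower and 0 higher by edgeR (6.67% and 0%, against 8.63% and 13.6% of all rows), and a median log2 fold change of -0.09. None was higher in DESeq2 or limma or at an unadjusted p under 0.05, and DESeq2 called 3 lower. ATP5MC1, 1 of the genes for the membrane ring subunit c (chr17:48892765-48895871), had 25.1, 26.3 and 27.8 FPKM in mimic libraries, against 34.6, 34.0 and 32.01 in control libraries. The groups were apart (log2 -0.27 ± 0.07, edgeR adjusted p = 0.0298), and the call was kept without mimic replicate 3 alone. ATP5MC3, another gene for the same subunit, did not pass (log2 -0.01 ± 0.05, adjusted p = 0.957). The catalytic head was at like levels in the groups. ATP5F1B, the catalytic beta subunit and the most abundant member of all, had 334, 350 and 276 FPKM in mimic libraries, against 312, 350 and 306 in control libraries. ATP5F1A, the alpha subunit, had 22.4, 24.0 and 23.5 FPKM in mimic libraries, against 23.6, 21.7 and 24.1 in control libraries. The groups overlapped in both, and neither passed (log2 0.06 ± 0.09 and 0.09 ± 0.06).

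The stalk subunit ATP5PB had 90.9, 93.7 and 90.9 FPKM in mimic libraries, against 87.6, 95.6 and 93.5 in control libraries. ATP5PF, also of the peripheral stalk, had 15.4, 16.6 and 20.0 FPKM in mimic libraries, against 17.3, 17.4 and 15.6 in control libraries. Both overlapped and did not pass. The stalk subunit ATP5PD had 15.3, 17.2 and 18.8 FPKM in mimic libraries, against 20.5, 24.3 and 21.3 in control libraries, without overlap (log2 -0.29 ± 0.10, edgeR adjusted p = 0.0914). ATP5IF1, the inhibitor that stops the enzyme from splitting ATP, had 17.6, 17.1 and 23.9 FPKM in mimic libraries, against 26.4, 29.6 and 28.3 in control libraries. All mimic libraries were lower, replicate 3 the least (log2 -0.45 ± 0.14, edgeR adjusted p = 0.0628). Without mimic replicate 3 ATP5IF1 passed (log2 -0.62, adjusted p = 0.00558). ATP5ME, a small membrane subunit named after its values were seen, showed the same split more strongly, with 3.65, 3.73 and 7.07 FPKM in mimic libraries, against 7.98, 8.56 and 8.38 in control libraries. Its log2 fold change was -0.71 ± 0.26 (adjusted p = 0.101), and -1.09 without mimic replicate 3 (adjusted p = 0.00315). ATP5F1E and ATP5MPL also passed lower without that library, and the remaining tested genes of the group, with log2 fold changes between -0.10 and -0.01, did not pass. ATP5MGL had 1, 0 and 2 counts in mimic libraries and 0 in each control library.

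Of the antisense RNAs, COX10-AS1 was tested, with 0.723, 1.94 and 1.81 FPKM in mimic libraries, against 0.836, 1.30 and 2.43 in control libraries. The groups overlapped (log2 0.05 ± 0.48, edgeR adjusted p = 0.956). NDUFB2-AS1 had 14, 3 and 12 counts in mimic libraries, against 12, 16 and 6 in control libraries. NDUFV2-AS1 had 23, 178 and 13 counts in mimic libraries, against 23, 20 and 44 in control libraries, so mimic replicate 2 alone was high. Both were under the filter.

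**Figure D2:**
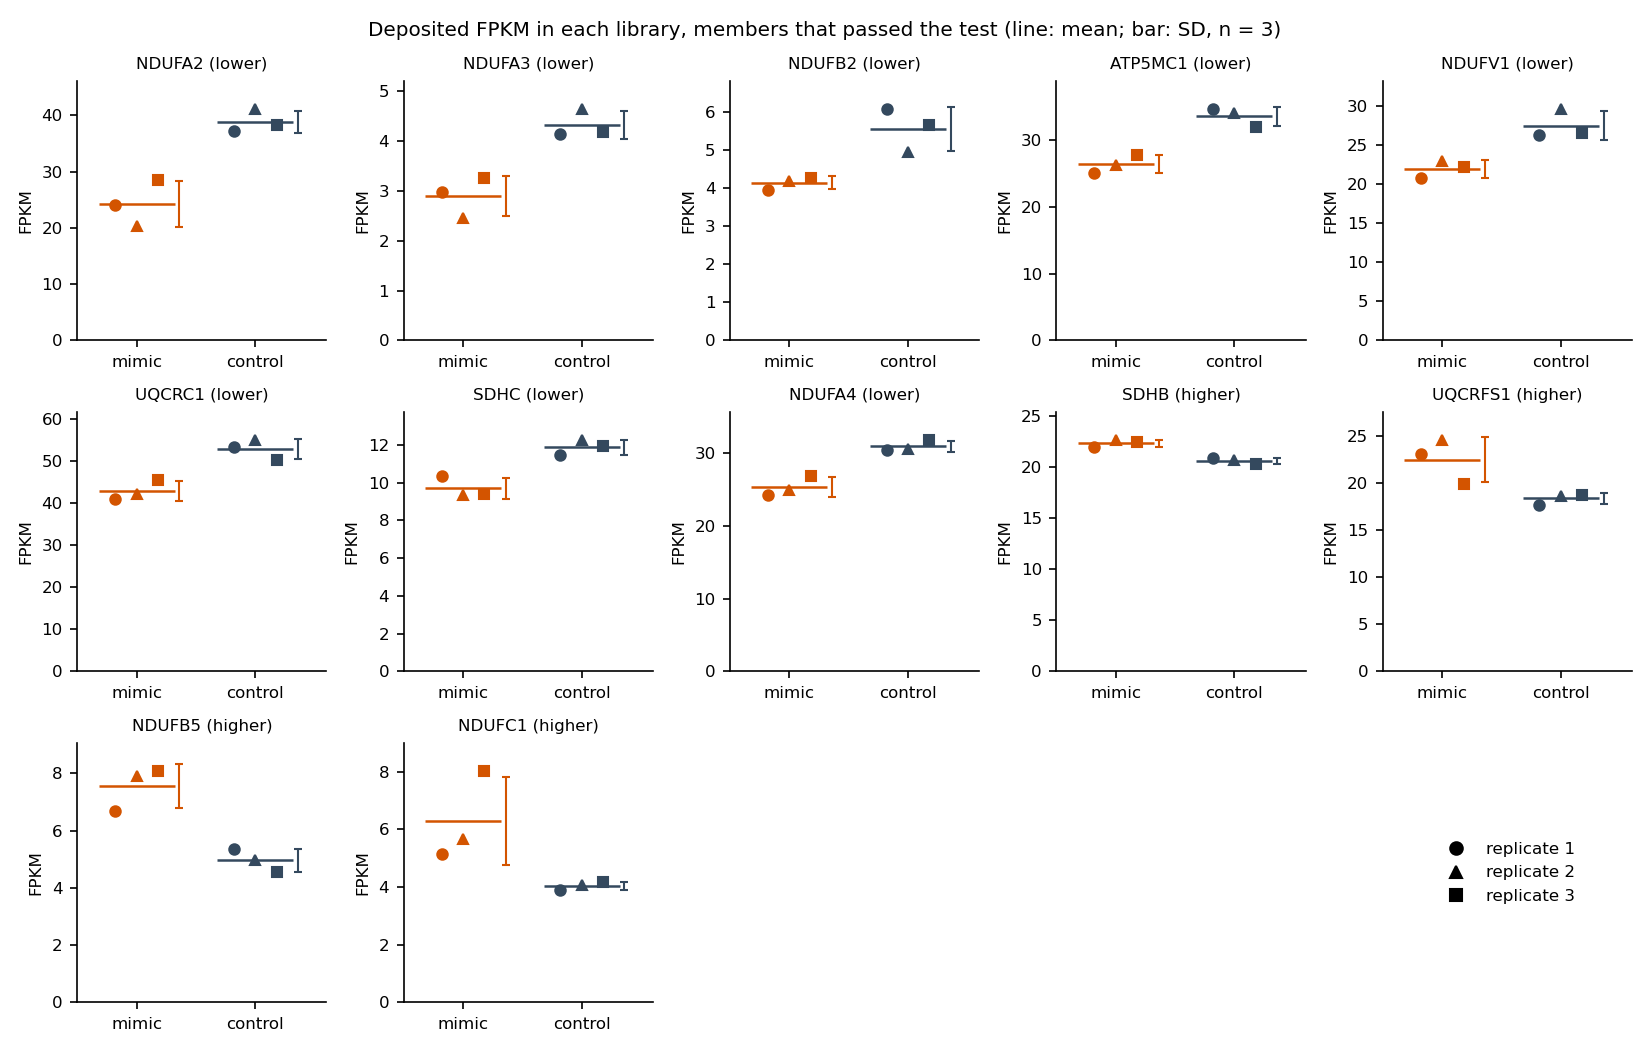
Deposited FPKM in each mimic and control library (points: libraries, marked by replicate; line: mean; bar: SD, n = 3 each) of 12 members that passed the test, on axes from 0. In all 12 the groups do not overlap, which adds no support to the calls, since the same comparison chose the genes. Of all rows tested, 29.7% were lower and 16.1% higher without overlap on this scale. The group means differ most, relative to their level, for NDUFA2, NDUFB5 and NDUFC1.

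The members did not deviate alike in the mimic libraries. On the log2(FPKM + 1) scale, the median difference of the 83 members from their control mean was -0.22 in mimic replicate 1, -0.22 in replicate 2 and -0.10 in replicate 3, against -0.03, 0.04 and -0.02 in control replicates 1, 2 and 3. Over all rows tested it was -0.06, -0.08 and -0.07 in mimic replicates 1, 2 and 3, so replicate 3 did not stand apart there. Of the 7 groups, complex IV subunits differed most between the mimic libraries, at -0.33, -0.26 and -0.02. Complex III was at -0.33, -0.37 and -0.12, complex I subunits at -0.29, -0.27 and -0.12, and ATP synthase at -0.31, -0.09 and -0.08. The assembly factors of complex IV were at -0.09 in each of the 3. Of the 58 members with a negative fold change, mimic replicate 3 had the highest mimic value in 42, and in 20 it was at or above the lowest control value. Mimic replicates 1 and 2 were both below all controls in 49 of the 58. The 58 were picked for a fold change below 0 in these same libraries, which favours low mimic values. The same counts were not made over all rows tested, so they are a description and do not set the members apart.

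Row length, the fixed length behind the deposited FPKM and not that of a transcript, moved with this pattern. Over the 760 tested rows of up to 1000 bases, the median difference from the control mean was -0.12, -0.11 and -0.03 in mimic replicates 1, 2 and 3. Over the 7342 rows above 4000 bases it was -0.04, -0.06 and -0.07. The median log2 fold change was -0.07 over all rows of up to 1000 bases and -0.24 over the 6 members among them. Between 1000 and 2000 bases it was -0.07 over all rows and -0.09 over 21 members, between 2000 and 4000 bases -0.03 and -0.15 over 29 members, and above 4000 bases -0.0002 and -0.02 over 27 members. With a correction for row length, added after the data were seen, 9 members were lower and 4 higher, against 10.2% and 12.7% of all rows, and the median over the members was -0.12. The part of length in the result was not tested further. In RNA from whole cultures, fewer cells of a kind and less of a transcript per cell cannot be told apart.

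**Figure D3:**
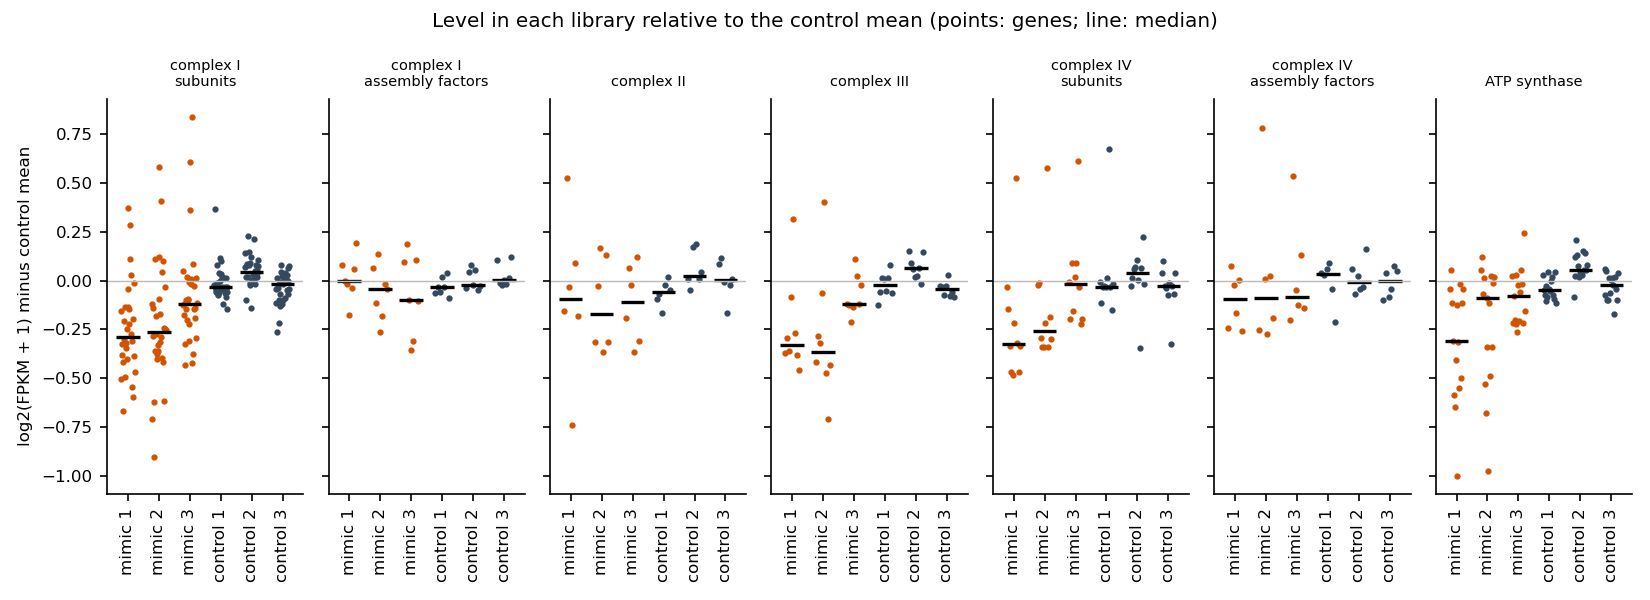
Difference of each tested gene (points) from its own control mean, on the log2(FPKM + 1) scale, in mimic libraries 1 to 3 (left of each panel) and control libraries 1 to 3 (right), with the median as a line. For complex I subunits, complex III and complex IV subunits the medians of mimic replicates 1 and 2 lie at -0.26 or below and that of replicate 3 at -0.12 or above; in ATP synthase replicate 1 alone is low, at -0.31.

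Of the 15 rows that merge an oxidative phosphorylation gene with neighbours, 14 were tested. By edgeR 2 were lower and 0 higher (14.3% and 0%, against 8.63% and 13.6% of all rows), with a median log2 fold change of -0.09. DESeq2 and limma called 0 higher too, and 1 was higher at an unadjusted p under 0.05. The row SEC31B/NDUFB8/AL133352.1 had 10.97, 11.2 and 12.1 FPKM in mimic libraries, against 13.8, 14.9 and 14.0 in control libraries (log2 -0.24 ± 0.06, adjusted p = 0.035). The row SYNJ2BP-COX16/COX16/SYNJ2BP had 7.16, 7.03 and 7.59 FPKM in mimic libraries, against 8.67, 9.43 and 9.53 in control libraries (log2 -0.27 ± 0.07, adjusted p = 0.0317). Neither overlapped between groups, and the counts cannot be assigned to the respiratory gene or its neighbour. The rows with SDHD, NDUFA9, NDUFA7, NDUFS3, NDUFC2, NDUFA13, UQCR11, COX17, ATP5MC2, ATP5MD, ATP5MF and ATP5PO, with log2 fold changes between -0.28 and 0.18, did not pass.

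Promoters of respiratory genes are known for sites of nuclear respiratory factor 1 (NRF1), of ETS-family factors such as GABP and of YY1. In the RefSeq promoters (GRCh38.p14, 250 bases before to 50 after the start), 69 of the 87 members named for a protein-coding gene were found. The NRF1 letters GCGCANGCG were in 20 of them on either strand (28.99%), against 8.05% of all 27305 promoters and 15.6% of those of the other tested genes. The ETS letters CCGGAAG were in 17 (24.6%), against 10.7% and 20.3%, and the YY1 letters AAGATGGCG in 7 (10.1%), against 1.85% and 4.41%. No matches of different motifs overlapped in a member, and 7 of the 69 held more than 1 motif. At least 1 motif was held by 36 of the 69 and by 4 of the 9 called members with a promoter there. These 4 are printed, and they show the same motif in promoters of genes that were lower and of genes that were higher. Capitals mark the motif letters, each line is the gene's own strand, and UQCRFS1 and SDHB were higher while NDUFA3 and UQCRC1 were lower.
UQCRFS1 (chr19:29213102-29213401): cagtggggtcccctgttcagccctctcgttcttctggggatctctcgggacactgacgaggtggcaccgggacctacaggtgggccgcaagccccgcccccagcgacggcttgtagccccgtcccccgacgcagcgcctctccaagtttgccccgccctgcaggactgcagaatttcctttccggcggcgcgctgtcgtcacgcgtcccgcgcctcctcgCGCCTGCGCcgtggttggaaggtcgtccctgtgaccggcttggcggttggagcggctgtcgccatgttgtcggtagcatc
SDHB (chr1:17053983-17054282): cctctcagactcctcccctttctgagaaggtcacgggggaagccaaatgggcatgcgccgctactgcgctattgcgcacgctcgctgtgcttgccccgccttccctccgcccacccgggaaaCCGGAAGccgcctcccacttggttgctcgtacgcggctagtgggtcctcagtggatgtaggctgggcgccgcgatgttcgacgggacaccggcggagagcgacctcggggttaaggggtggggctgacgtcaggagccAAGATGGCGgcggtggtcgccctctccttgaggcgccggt
NDUFA3 (chr19:54102605-54102904): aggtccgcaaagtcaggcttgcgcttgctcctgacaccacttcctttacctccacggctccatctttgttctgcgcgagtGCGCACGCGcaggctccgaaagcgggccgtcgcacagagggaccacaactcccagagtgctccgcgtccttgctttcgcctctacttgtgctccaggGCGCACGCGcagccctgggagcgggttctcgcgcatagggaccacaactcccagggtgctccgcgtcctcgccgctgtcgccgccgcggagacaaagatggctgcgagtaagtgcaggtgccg
UQCRC1 (chr3:48609597-48609896): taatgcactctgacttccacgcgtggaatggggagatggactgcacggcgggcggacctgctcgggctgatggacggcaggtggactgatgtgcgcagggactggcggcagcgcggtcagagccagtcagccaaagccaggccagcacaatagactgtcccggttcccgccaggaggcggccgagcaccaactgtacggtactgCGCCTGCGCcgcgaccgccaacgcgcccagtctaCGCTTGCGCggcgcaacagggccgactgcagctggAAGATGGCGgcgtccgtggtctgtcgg

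The 20 tested members with the NRF1 letters had a median log2 fold change of -0.18, against -0.08 for the 48 without. For the ETS letters it was -0.09, against -0.15, and for the YY1 letters -0.15, against -0.15. In UQCRFS1 the NRF1 letters lie from base -30 to base -22 relative to the start, and in UQCRC1 from -46 to -38 and from -12 to -4. A match describes letters only.

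Related genes outside the name rule were read from the same fit. Listed genes without a row of a single gene name, NRF1 among them, were left out. Of the 13 subunits encoded in mitochondrial DNA, 5 had such a row and were tested, with mean control levels of 262 to 8305 FPKM. By edgeR 1 was lower and 0 higher (20.0% and 0%, against 8.63% and 13.6% of all rows), with a median log2 fold change of -0.14. None was higher in DESeq2 or limma or at an unadjusted p under 0.05. MT-CO1, the catalytic subunit of complex IV, had 3993, 4220 and 4024 FPKM in mimic libraries, against 4686, 4925 and 4778 in control libraries. The groups did not overlap (log2 -0.16 ± 0.04, edgeR adjusted p = 0.0371), and the call was kept in 1 of the 6 fits without 1 library. MT-ND1, MT-ND3, MT-ND6 and MT-CO2 did not pass, with log2 fold changes between -0.52 and 0.27. The row of MT-ND6, the highest of them, is an assembled locus of 2618 bases for a gene at bases 14149 to 14673. Its counts may not all be of MT-ND6. CYC1 of complex III and cytochrome c (CYCS) had log2 fold changes of -0.06 and 0.07 and did not pass.

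Among 31 tested assembly factors whose names fall outside the rule, 4 were lower and 0 higher by edgeR (12.9% and 0%, against 8.63% and 13.6% of all rows). The median log2 fold change was -0.12. DESeq2 and limma called 0 higher too, and 7 and 9 lower. At an unadjusted edgeR p under 0.05, 9 were lower and 2 higher. TMEM242, which serves assembly of complex I and ATP synthase, had 2.40, 2.32 and 2.25 FPKM in mimic libraries, against 3.43, 3.17 and 3.46 in control libraries. UQCC3, a complex III assembly factor, had 9.32, 9.60 and 10.6 FPKM in mimic libraries, against 13.6, 15.7 and 13.4 in control libraries. Both were apart, with log2 fold changes of -0.45 ± 0.09 and -0.45 ± 0.10 (edgeR adjusted p = 0.0133 and 0.0196), and the calls were kept in 5 and 3 of the 6 fits without 1 library. LYRM7, which holds the Rieske protein UQCRFS1 before its insertion, had 0.599, 0.795 and 0.885 FPKM in mimic libraries, against 2.21, 1.122 and 3.15 in control libraries. All 3 mimic values were under 1 FPKM, so LYRM7 passed the expression filter through its control libraries alone. Its lack of overlap therefore adds no support. Controls were widely spread (log2 -1.43 ± 0.37, edgeR adjusted p = 0.034), and the call was kept in 1 of those fits. DESeq2 also called LYRM7 lower, and limma did not. The last of the 4 was the complex III assembly factor UQCC1 (log2 -0.26).

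Of 12 coenzyme Q synthesis genes tested, 2 were higher and 0 lower by edgeR (16.7% and 0%, against 13.6% and 8.63% of all rows). Of them, 2 were lower at an unadjusted p under 0.05, and DESeq2 and limma each called 1 lower, COQ10A. COQ3, a methyltransferase of the pathway, had 6.84, 9.34 and 8.67 FPKM in mimic libraries, against 4.41, 4.18 and 4.90 in control libraries (log2 0.96 ± 0.15, edgeR adjusted p = 0.00573). COQ8A had 4.89, 5.07 and 5.02 FPKM in mimic libraries, against 3.48, 3.89 and 3.66 in control libraries (log2 0.52 ± 0.07, adjusted p = 0.00383). Both were higher in every mimic library and were called in all 6 fits without 1 library.

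Of 15 genes of the tricarboxylic acid cycle and pyruvate dehydrogenase, 3 were lower and 1 higher (20.0% and 6.67%, against 8.63% and 13.6% of all rows), with a median log2 fold change of -0.09. SUCLG2, a subunit of succinyl-CoA synthetase, had 38.9, 42.9 and 41.9 FPKM in mimic libraries, against 57.3, 56.3 and 55.3 in control libraries. The groups were far apart (log2 -0.37 ± 0.05, edgeR adjusted p = 0.00414), and all 6 fits without 1 library kept the call. DLST, a subunit of the oxoglutarate dehydrogenase complex, had 24.9, 25.0 and 23.7 FPKM in mimic libraries, against 31.1, 30.97 and 28.9 in control libraries (log2 -0.23 ± 0.05, edgeR adjusted p = 0.0211). PDHX, of the pyruvate dehydrogenase complex, had 17.2, 17.95 and 14.1 FPKM in mimic libraries, against 21.1, 21.6 and 23.1 in control libraries (log2 -0.34 ± 0.09, edgeR adjusted p = 0.0405). Both were lower in every mimic library. IDH3A, a subunit of isocitrate dehydrogenase, had 16.7, 19.2 and 16.5 FPKM in mimic libraries, against 12.5, 15.6 and 12.7 in control libraries. It was higher in every mimic library (log2 0.44 ± 0.11, edgeR adjusted p = 0.0281). The calls of DLST and IDH3A were kept in 2 of the 6 fits without 1 library and that of PDHX in 1.

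Of 14 tested regulators of respiratory genes and of mitochondrial DNA, 3 were higher and 1 lower (21.4% and 7.14%, against 13.6% and 8.63% of all rows), with a median log2 fold change of 0.11. GABPB1, a subunit of the ETS-family factor GABP, had 6.03, 6.86 and 5.62 FPKM in mimic libraries, against 3.80, 4.26 and 3.81 in control libraries. PPARGC1B, a coactivator of respiratory genes, had 4.87, 4.64 and 4.54 FPKM in mimic libraries, against 3.85, 3.93 and 3.42 in control libraries. Both were higher in every mimic library, at 0.72 ± 0.10 and 0.40 ± 0.07 (log2; edgeR adjusted p = 0.0037 and 0.00986), and were called in all 6 fits without 1 library. TFB2M, a mitochondrial transcription factor, had 12.2, 13.1 and 11.8 FPKM in mimic libraries, against 10.3, 9.83 and 10.3 in control libraries (log2 0.36 ± 0.08, adjusted p = 0.0186; kept in 2 fits). POLRMT, the RNA polymerase of mitochondrial DNA, had 23.6, 22.3 and 24.2 FPKM in mimic libraries, against 29.98, 30.6 and 32.7 in control libraries. It was lower in every mimic library (log2 -0.33 ± 0.06, adjusted p = 0.00826) and in all 6 of those fits. GABPA, the DNA-binding subunit of GABP, had a log2 fold change of -0.06 ± 0.08 and YY1 of 0.10 ± 0.36, and neither passed. TWNK and TFB1M, named after their values were seen, did not pass by edgeR either. TWNK had the highest log2 fold change of the list (1.22 ± 0.36, edgeR adjusted p = 0.0512), and DESeq2 called it higher. TFB1M (log2 -0.42 ± 0.14, edgeR adjusted p = 0.0752) was called lower by DESeq2 and limma.

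**Figure D4:**
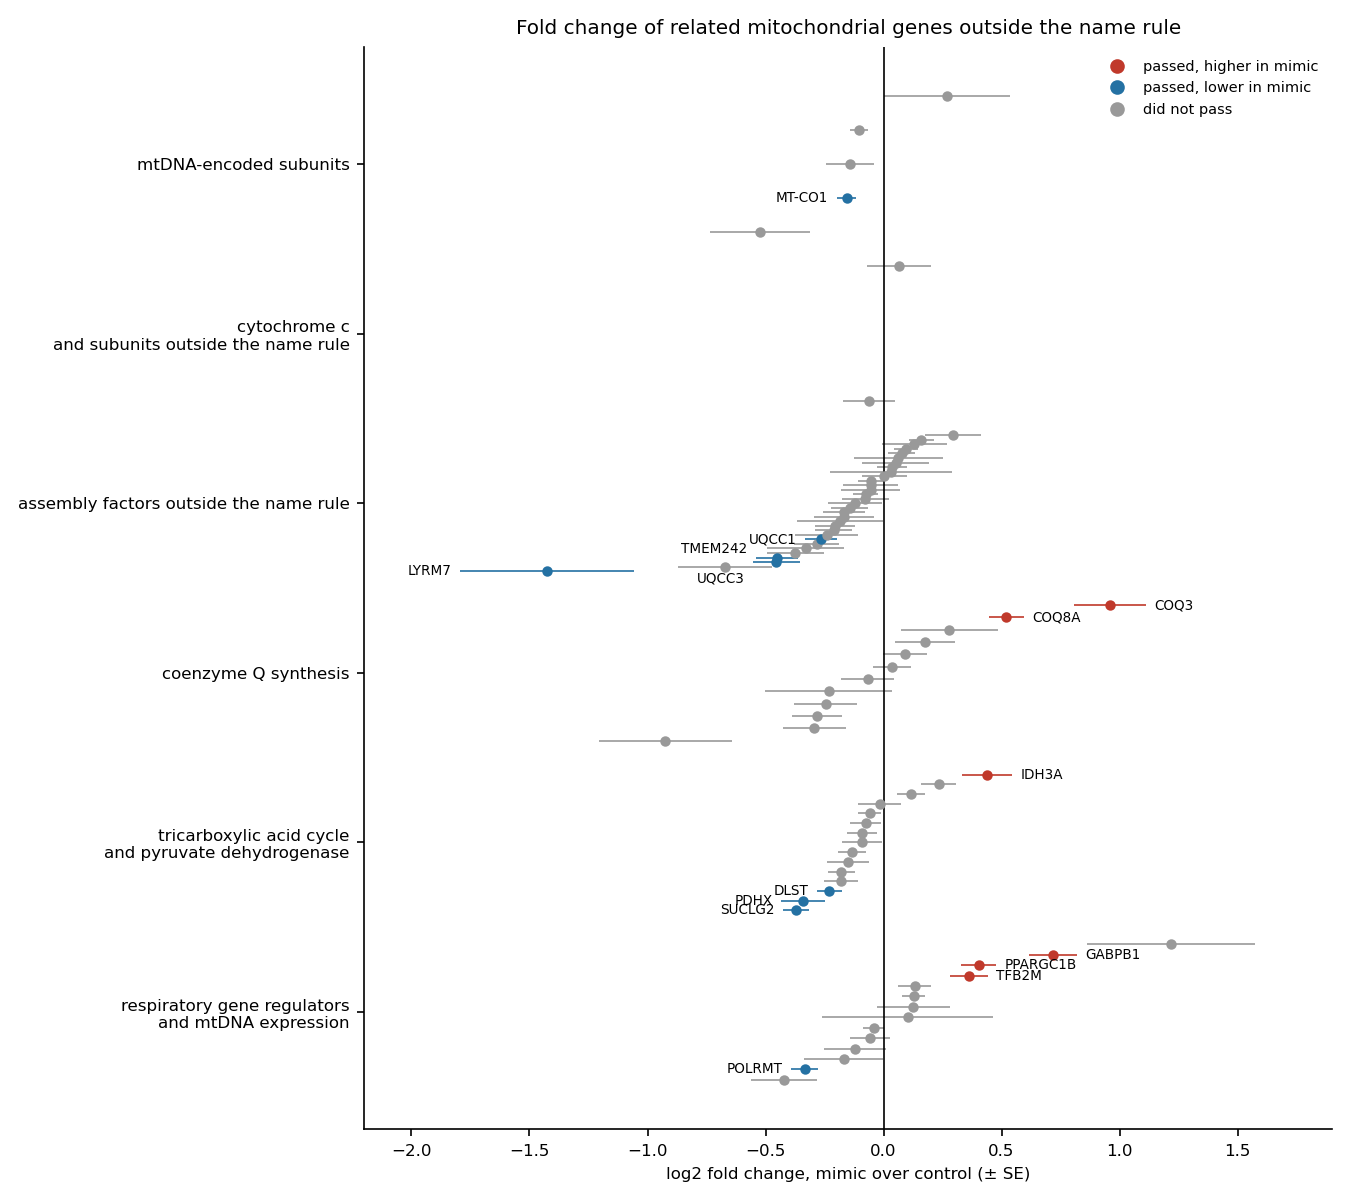
Log2 fold change (mimic over control, bars: SE) of the tested genes of 6 related lists outside the name rule, 1 row of points per list. The 4 assembly factors that passed lie below 0, and 3 of the 4 regulators that passed lie above 0.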

How the data were processed

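The authors deposited a table with raw counts and FPKM for each of the 6 libraries, per the file headers. Trimming used cutadapt 1.9, quality checks FastQC and the build was GRCh38, per the submitters' processing notes. The sources used here name no aligner, counting tool or strandedness, so reads of antisense neighbours are not separated. The deposited FPKM are the count divided by a fixed row length and the library total. Levels and abundance compared between genes are by this FPKM, which a row longer than the transcript lowers. Unnamed rows, with 2.46 to 2.70% of counts, stayed out of library sizes and tests. Gene coordinates are those of the deposited table. All columns were mapped to a sample by their names.

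Counts were tested with edgeR 4.0.16 (glmQLFit and glmQLFTest, R 4.3.3, TMM scaling, two-sided) on the 11260 rows that reached 1 FPKM in 3 or more of the 6 libraries, adjusting p over all of them. The common biological coefficient of variation was 14.0%. Log2 fold changes are mimic minus control, with the SE from the F statistic. Depth was 31643826 to 32363456 counts per library. Members, gene lists and motifs were chosen with earlier results of these data known. Values in every library are given for genes that passed, up to 3 per complex and direction with the smallest p, and the most abundant of each complex, and, of each related list, for up to 3 per direction that passed. Alternatives were DESeq2 1.42.0, limma 3.58.1 on log2(FPKM + 1), library totals, other filters, a block for the replicate number, leaving out each library and, added after seeing the data, a length correction. Of the genes this selection gives, 1 is counted but not reported by name here. The test was checked on simulated data. Tables were handled with Python 3.11.15 and pandas 2.3.3, and figures drawn with matplotlib 3.10.9.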

Additional observations from a re-analysis of the deposited data

How the results depend on the processing

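Without 1 library, members called lower ranged from 0 to 21 (9 in all libraries) and higher from 1 to 3 (4). Lower genes ranged from 0 to 8 in complex I (5), from 0 to 1 in complex II (1), from 0 to 3 in complex III (1) and from 0 to 5 in complex IV (1) and in ATP synthase (1). Higher genes ranged from 1 to 2 in complex I (2), from 0 to 0 in complex II (1), from 0 to 1 in complex III (1) and from 0 to 1 in complex IV (0). Genes of the related lists called lower ranged from 4 to 10 (9). Scaled to library totals, 20 members were lower: 9 of complex I, 3 of II, 2 of III, 3 of IV and 3 of ATP synthase, with 0 higher in complex II and 19 lower in the related lists. In limma on log2(FPKM + 1), 20 were lower and 2 higher: 10 lower in complex I, 2 in II, 3 in IV and 4 in ATP synthase, 0 higher in complexes II and III, and 20 lower in the related lists. DESeq2 gave 12 lower and 5 higher, with 2 lower in complex II, 3 in ATP synthase, 1 higher in complex IV and 15 lower in the related lists. At 5 FPKM or more, 10 were lower, 2 of them in ATP synthase. With no filter, 1 was lower, in complex I, and 0 in complexes II, III and IV and ATP synthase, with 0 higher in complex II and 1 in complex IV; the median over all rows was then -0.02. With the replicate number as a block, 2 members were lower, both in complex I, 0 in the other complexes, and 3 higher, 0 in complex II, against 5.97% and 11.1% of all rows. The numbers did not pair the libraries: same-numbered deviations correlated at -0.01, 0.06 and -0.05. None of the 58 genes followed by name changed sign with a call under any of the 13 alternatives. The cause of the lost calls was not tested.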
